A study of Mus musculus with 4 samples.

Results

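The genes described here are 6 that sense sterol in the liver cell or govern how much lipoprotein cholesterol it takes up: Srebf2, Scap, Insig1, Insig2, Mylip and Stard4. They were chosen by name, with earlier results of these data known. Every gene probe (not a control spot) carrying 1 of these names on the array was used, which gave 6 of 31829 gene names and 10 of 39429 gene probes. Srebf2, Insig2, Mylip and Stard4 had 2 probes each, and Scap and Insig1 had 1. Of these, 9 were among the 19735 probes kept for testing, because they stood well above background on all 4 arrays in at least 1 of the feeding states. The tenth, a dim Mylip probe, is given without a test.

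Livers came from male C57BL/6J mice of 8 to 12 weeks, with no transgene or deletion in the labels. Fasted mice had been without food for 24 h, and re-fed mice had been without food for the same 24 h and then ate for 2 h, so that both groups had fasted and differed in the short meal. The study set the 2 states side by side because fasting hormones act on liver through cAMP and the meal ends that signal. Each of the 4 arrays held the RNA of 1 fasted and 1 re-fed liver, joined at random, and each array is 1 replicate. The fasted liver was in the red dye, Cy5, on replicates 1 and 2 and in the green dye, Cy3, on replicates 3 and 4.

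Cholesterol in the membrane of the endoplasmic reticulum sets its own supply. SREBP2, the product of Srebf2, is made as an inactive precursor that SCAP carries to the Golgi when sterol is scarce, and there it is cut so that its front part can enter the nucleus and switch on genes of sterol synthesis and lipoprotein uptake. When sterol is plentiful, the INSIG proteins hold SCAP back. MYLIP, also called IDOL, marks lipoprotein receptors for breakdown and is induced by the oxysterol receptors LXR in many cell types, though little in mouse liver, and STARD4 ferries cholesterol between membranes inside the cell. In liver, Insig1 is known as a target of the SREBPs and Insig2 as a gene with a liver transcript that insulin lowers.

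In these livers the genes did not move as a block. Both probes of Insig2 and the brighter Mylip probe were higher in fasted than in re-fed liver, while Insig1 and both probes of Stard4 were lower. Scap differed by less than the 1.5-fold limit, and Srebf2 did not pass the test. A probe was called when its adjusted p in limma was under 0.10, adjusted by Benjamini-Hochberg over the 19735 probes kept, and its change was at least 1.5-fold. By that rule 3 of the 9 kept probes were called higher, where 1.7% of all kept probes were, and 3 were called lower, where 2.07% of all were, which is 3.77% for both directions together. Over all kept probes these were 335 higher and 409 lower, and with median centring in place of loess 230 and 635. The genes were chosen with earlier results of these data known, and Insig2 and Stard4 each count with both probes. The shares are therefore a description. Of the 9 kept probes, called or not, 7 had 1 sign on all 4 arrays, which held for 29.6% of all kept probes in either direction.

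**Figure D1:**
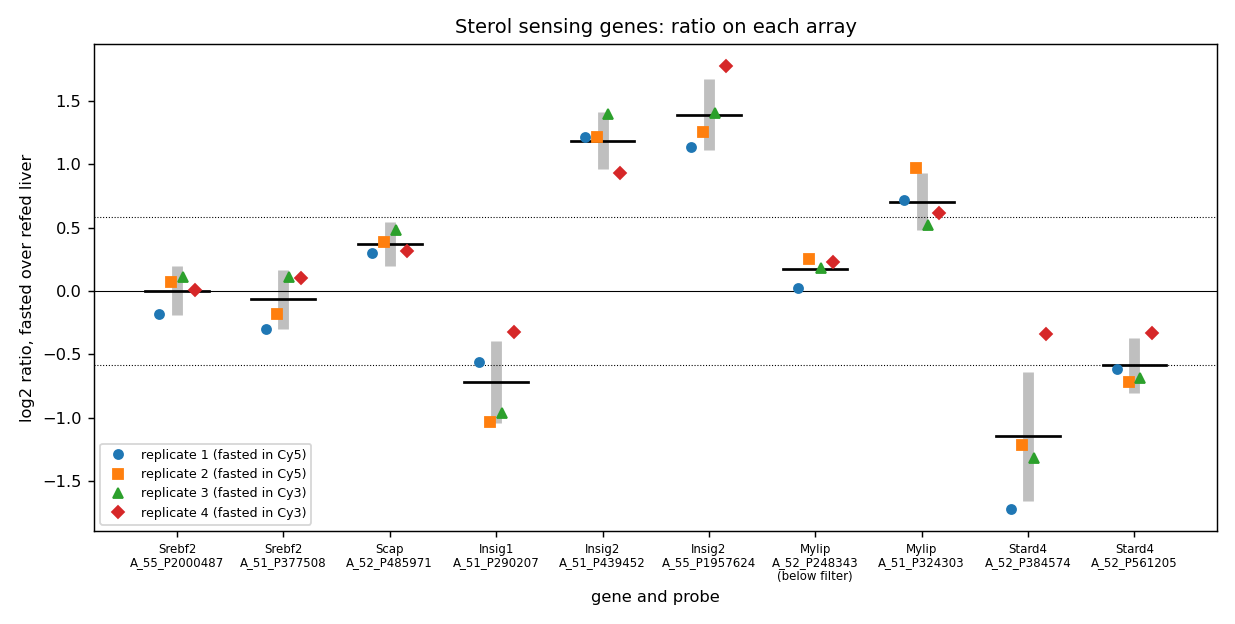
Log2 ratio of fasted over re-fed liver (y axis) for each probe of the 6 genes (x axis). Each marker is 1 array, the black line is the mean of 4 arrays, the grey bar is the 95% interval from limma (none for the Mylip probe below the filter), and dotted lines mark 1.5-fold. Both Insig2 probes lie above the upper line on all 4 arrays, and replicate 4 is the array nearest to 0 for Insig1 and Stard4.

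Brightness differed between the arrays. The median gene spot had a raw signal of 44 to 96 in green and 40 to 75 in red over the 4 arrays, against local backgrounds of 20 to 33 and 25 to 35. All 4 arrays were on 1 slide read in 1 scan, so neither was a batch, and 4 arrays are few for estimating a spread. The 10 hepatocyte markers looked up were all above background in all 8 livers. Their mean log2 ratios were 0.40, 0.50, 0.01 and -0.07 on replicates 1 to 4. The higher means, on replicates 1 and 2, were those with the fasted liver in red. Of the 10 markers 1, Tat, was called higher (mean 0.84, limma adjusted p = 0.0453). Of 11 genes of the exocrine pancreas, 3 were kept, and their mean log2 ratio was 0.04, -0.06, -3.93 and 0.03 on replicates 1 to 4, with the re-fed liver of replicate 3 high. For 5 kept genes of red blood cells the mean log2 ratio was 1.49, -0.25, 1.88 and 0.26. The part of these other cells in the values below was not tested, and in whole liver a lower level can mean fewer cells or less RNA per cell, which cannot be told apart.

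Insig2 was higher in fasted liver on both of its probes. INSIG2 is the anchor that keeps SCAP in the endoplasmic reticulum, and unlike INSIG1 it is not known as an SREBP target. Its brighter probe, A_51_P439452, lies in mm9 at chr1:123201085-123201144 on the minus strand and is listed under transcript NM_133748. A level here is the log2 intensity of 1 liver after background correction, loess within the array and scaling of mean brightness between arrays (Aquantile), and levels of different probes are not comparable. On this probe the fasted livers of replicates 1 to 4 had log2 levels of 13.57, 13.32, 13.58 and 13.10, and the re-fed livers had 12.36, 12.11, 12.18 and 12.17. Every fasted liver was above every re-fed liver, with a gap of 0.74 between the groups. The log2 ratios on the 4 arrays were 1.21, 1.21, 1.40 and 0.93, with a mean of 1.19 ± 0.19 (SD, n = 4), a 2.28-fold difference (95% interval 0.96 to 1.41 on the log2 scale, limma adjusted p = 0.0043). Only 0.37% of kept probes had a mean ratio as high or higher.

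The other Insig2 probe, A_55_P1957624, is listed under transcript NM_178082 and lies upstream of the brighter probe, at chr1:123202133-123202192 in mm9. The fasted livers had log2 levels of 12.03, 11.84, 12.26 and 12.28 and the re-fed livers 10.89, 10.58, 10.85 and 10.51. These groups were further apart, with a gap of 0.95. Log2 ratios were 1.14, 1.26, 1.40 and 1.77, with a mean of 1.39 ± 0.28 (SD, n = 4), or 2.63-fold (95% interval 1.11 to 1.67, limma adjusted p = 0.00476). Both probes thus gave about the same ratio on replicates 1 to 3, where they differed by 0.08 or less on the log2 scale. On replicate 4 they parted, with a difference of -0.85 between the first and the second.

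RefSeq gives Insig2 more than 1 start, and 3 promoter windows were read for it. A window is the 250 bases before and 50 bases from an annotated start, in build GRCm38.p6. The window of the most upstream start, chr1:121332540-121332839 on the minus strand, is printed here because both Insig2 probes were called and this window has fewer G and C than the others. It has a GC content of 46%, against 57% and 69.3% in the windows of the other Insig2 starts, 58.3% and 62.3% for the 2 Scap starts and 68.7% to 71.7% for Srebf2, Insig1 and Mylip. Capitals in this and the other windows mark the letters TCACNCCA (core of a sterol regulatory element), the CCAAT box by its own letters, the E-box CACGTG and TGACG (a partial cAMP response element), searched on both strands, with N standing for any base. A full element, TGACGTCA, would contain the partial one on either strand, and none of the 8 windows read held one. No window was read for Stard4.
Insig2, most upstream start: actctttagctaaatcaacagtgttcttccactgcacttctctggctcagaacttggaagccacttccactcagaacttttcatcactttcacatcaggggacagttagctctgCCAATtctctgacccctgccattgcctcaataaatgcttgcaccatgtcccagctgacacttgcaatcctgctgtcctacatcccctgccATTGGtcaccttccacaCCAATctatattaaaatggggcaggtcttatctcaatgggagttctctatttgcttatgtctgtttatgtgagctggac

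This window held CCAAT 3 times, starting at positions -136, -46 and -29 relative to the start, the middle one on the opposite strand. The window of the third start held 1 partial element at -146, and that of the second start held none of the capitalised motifs. Of all 32851 windows in the RefSeq table, 37.4% held CCAAT, 20.8% held TGACG, 7.15% held CACGTG, 4.36% held TCACNCCA and 1.79% held TGACGTCA. The share that held CCAAT 3 times was not counted. Binding was not measured by these arrays, and a match of letters is a description of the sequence.

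Insig1, the INSIG that sterol shortage brings up together with the synthesis enzymes, moved the other way. Its probe, A_51_P290207, lies at chr5:28404246-28404305 in mm9 on the plus strand. The log2 levels were 7.52, 7.98, 8.05 and 8.53 in fasted livers and 8.08, 9.01, 9.01 and 8.85 in re-fed livers. The fasted liver was the lower on each array, but the groups overlapped, because both livers of replicate 1 were low and the fasted liver of replicate 4 was high. The log2 ratios were -0.56, -1.03, -0.96 and -0.32, with a mean of -0.72 ± 0.34 (SD, n = 4), or 1.64-fold lower in fasted liver (95% interval -1.04 to -0.39, limma adjusted p = 0.0356). The call was lost without replicate 2 (mean -0.61, adjusted p = 0.119) or replicate 3 (mean -0.64, adjusted p = 0.143). It held without replicate 1 (mean -0.77, adjusted p = 0.065) or replicate 4 (mean -0.85, adjusted p = 0.046).

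The Insig1 window, chr5:28071162-28071461 on the plus strand of GRCm38.p6, is printed beside that of Insig2 because the 2 INSIG genes moved in opposite directions.
Insig1: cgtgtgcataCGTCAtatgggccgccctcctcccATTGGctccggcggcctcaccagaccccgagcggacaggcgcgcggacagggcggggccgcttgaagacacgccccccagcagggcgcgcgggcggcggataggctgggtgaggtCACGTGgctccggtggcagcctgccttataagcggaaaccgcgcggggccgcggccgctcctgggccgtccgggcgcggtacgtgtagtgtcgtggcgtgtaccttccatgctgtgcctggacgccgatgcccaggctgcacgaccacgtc

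It held an E-box at position -101, CCAAT on the opposite strand at -216 and a partial cAMP response element on the opposite strand at -240. The letters TCACNCCA were not in this window.

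The opposite directions of the 2 INSIG genes were seen on each array. The log2 ratio of Insig2, by its brighter probe, exceeded that of Insig1 by 1.77, 2.25, 2.36 and 1.25 on replicates 1 to 4, with a mean of 1.90 ± 0.51 (SD, n = 4). This is a difference between ratios, and the levels of the 2 transcripts were not compared. Replicate 4 had the smallest difference, since Insig1 fell least there and the brighter Insig2 probe rose least.

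**Figure D2:**
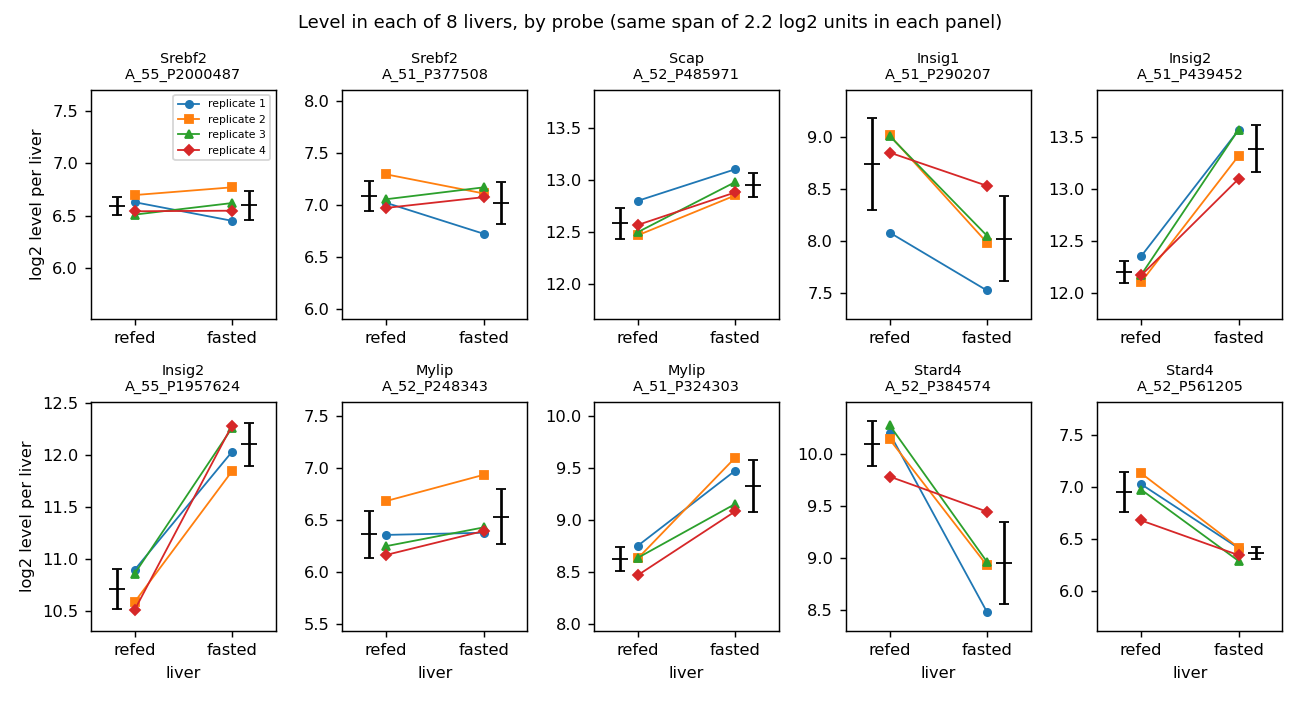
Log2 level (y axis) in each re-fed and fasted liver for the 10 probes, with a line joining the 2 livers of 1 array. Black marks are the mean and SD of 4 livers, and each panel spans 2.2 log2 units but starts at its own level, since probes cannot be set against each other. Fasted and re-fed livers do not overlap for Scap, both Insig2 probes, the brighter Mylip probe and both Stard4 probes.

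Stard4, whose protein moves cholesterol to the endoplasmic reticulum and the plasma membrane, was the other gene called lower in fasted liver. The brighter probe, A_52_P384574, lies at chr18:33361181-33361240 in mm9 on the minus strand. Fasted livers had log2 levels of 8.48, 8.93, 8.96 and 9.44, and re-fed livers 10.20, 10.14, 10.28 and 9.78. The groups did not overlap, and the livers of replicate 4 came nearest each other, with the highest fasted and the lowest re-fed level. Log2 ratios were -1.72, -1.21, -1.31 and -0.34, with a mean of -1.15 ± 0.58 (SD, n = 4), or 2.21-fold lower (95% interval -1.65 to -0.64, limma adjusted p = 0.0346). Without replicate 2 or 3 the adjusted p was 0.123 or 0.133.

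The second Stard4 probe, A_52_P561205, was dim, with raw signals of 34 to 89 in fasted and 77 to 109 in re-fed livers over local backgrounds of 18 to 35. It maps in mm9 to chr18:33365863-33367852, a span longer than the probe. Its log2 levels were 6.41, 6.41, 6.29 and 6.34 in fasted and 7.02, 7.13, 6.97 and 6.68 in re-fed livers, again with no overlap. The log2 ratios of -0.61, -0.71, -0.68 and -0.33 had a mean of -0.59 ± 0.17 (SD, n = 4), which at 1.502-fold was only just past the limit (limma adjusted p = 0.0211). The call was lost without replicate 1 (-0.58), 2 (-0.54) or 3 (-0.55), and with mean signals or median centring (-0.58 in both). The size of this change moved with the processing. The mean ratio was -1.71 with Agilent's processed signals, -1.40 with plain subtraction and -0.85 in the authors' own ratios. For the brighter Stard4 probe the same settings gave -1.29, -1.26 and -1.23, so which of the 2 probes changed more turned with the processing. Of these settings, only plain subtraction changed the background step alone.

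Replicate 4 had the smallest fall for all 3 member probes that were called lower. Among all 409 probes called lower it had the smallest fall for 18.3%, and replicate 1 for 57%. The 6 sterol synthesis enzymes called lower had it on replicate 4 in 4 cases and on replicate 1 in 2. These counts are a description of 1 pair of livers, and what sets that pair apart was not tested.

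Mylip encodes the ubiquitin ligase that removes lipoprotein receptors from the cell surface. Its brighter probe, A_51_P324303, lies at chr13:45506979-45507038 in mm9 on the plus strand. The log2 levels were 9.47, 9.60, 9.15 and 9.08 in fasted livers and 8.75, 8.63, 8.63 and 8.47 in re-fed livers. All fasted livers lay above all re-fed livers, with a gap of 0.33. Log2 ratios of 0.72, 0.97, 0.52 and 0.61 gave a mean of 0.71 ± 0.19 (SD, n = 4), or 1.63-fold higher (95% interval 0.48 to 0.93, limma adjusted p = 0.0159). The mean was 0.85 on the arrays with fasted liver in red and 0.57 on those with it in green.

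The other Mylip probe, A_52_P248343, at chr13:45503808-45503867 in mm9, was well above background in 2 fasted livers and 1 re-fed liver and was not tested. It had log2 ratios of 0.02, 0.25, 0.18 and 0.23, with a mean of 0.17 ± 0.10 (SD, n = 4). Raw signals were 39 to 89 in fasted and 40.5 to 74 in re-fed livers. Mylip therefore rests on 1 probe. With the filter lifted, the dim probe had an adjusted p of 0.273.

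The Mylip window, chr13:45389492-45389791 on the plus strand of GRCm38.p6, is shown for its repeated motif.
Mylip: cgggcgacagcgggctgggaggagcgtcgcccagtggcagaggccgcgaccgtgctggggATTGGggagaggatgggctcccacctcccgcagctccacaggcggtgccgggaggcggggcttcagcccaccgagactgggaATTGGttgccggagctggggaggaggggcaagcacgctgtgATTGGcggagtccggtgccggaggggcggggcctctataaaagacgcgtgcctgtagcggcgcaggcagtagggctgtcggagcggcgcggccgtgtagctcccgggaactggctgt

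It held CCAAT 3 times, at positions -190, -108 and -67, all on the opposite strand. How many of all windows hold it 3 times was not counted. The letters TATAAA stood at -32 and are not capitalised. They were in 13.6% of all windows.

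Scap encodes the sterol sensor that escorts the SREBP precursors. The probe, A_52_P485971, lies at chr9:110287280-110287339 in mm9 on the plus strand, and it was bright, with raw signals of 5175 to 9988.5. Fasted livers had log2 levels of 13.10, 12.85, 12.98 and 12.88 and re-fed livers 12.80, 12.47, 12.50 and 12.57. The fasted livers were all higher, though the groups were only 0.052 apart. The log2 ratios of 0.30, 0.38, 0.48 and 0.31 had a mean of 0.37 ± 0.082 (SD, n = 4). That is a 1.29-fold difference (95% interval 0.20 to 0.54, limma adjusted p = 0.0403), under the 1.5-fold limit, so Scap was not called. Without a fold limit 10.8% of all kept probes passed. With arrays centred on their median in place of loess the Scap mean was 0.22 and the adjusted p 0.306.

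Srebf2, the source of the sterol-regulated factor itself, was dim and did not pass the test on either probe. For A_51_P377508, at chr15:82034765-82034824 in mm9 on the plus strand, log2 levels were 6.72, 7.11, 7.17 and 7.07 in fasted and 7.02, 7.29, 7.05 and 6.97 in re-fed livers, and the groups overlapped. The log2 ratios were -0.30, -0.18, 0.11 and 0.10, with a mean of -0.07 ± 0.21 (SD, n = 4) and a 95% interval of -0.30 to 0.17 (limma adjusted p = 0.769). The sign followed the dye, with a mean of -0.24 where fasted liver was in red and 0.11 where it was in green. The dye effect did not pass the test (adjusted p = 0.127), as was so for all 9 kept probes of the 6 genes, where 14.7% of all kept probes passed it.

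The other Srebf2 probe, A_55_P2000487, at chr15:82030068-82030127 in mm9, had log2 levels of 6.45, 6.77, 6.62 and 6.55 in fasted livers and 6.63, 6.70, 6.51 and 6.54 in re-fed livers. Log2 ratios were -0.18, 0.07, 0.11 and 0.01, with a mean of 0.0031 ± 0.13 (SD, n = 4) and a 95% interval of -0.19 to 0.20 (limma adjusted p = 0.989). Both intervals exclude a 1.5-fold change in either direction at the background correction used. The offset in that correction pulls the ratios of dim probes toward 0, and with plain subtraction the means were -0.06 for this probe and -0.18 for A_51_P377508. Raw signals were 41 to 163 in fasted and 51 to 126.5 in re-fed livers.

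The Srebf2 window, chr15:82147019-82147318 on the plus strand of GRCm38.p6, is shown because it alone of the 8 windows read held the sterol regulatory element core.
Srebf2: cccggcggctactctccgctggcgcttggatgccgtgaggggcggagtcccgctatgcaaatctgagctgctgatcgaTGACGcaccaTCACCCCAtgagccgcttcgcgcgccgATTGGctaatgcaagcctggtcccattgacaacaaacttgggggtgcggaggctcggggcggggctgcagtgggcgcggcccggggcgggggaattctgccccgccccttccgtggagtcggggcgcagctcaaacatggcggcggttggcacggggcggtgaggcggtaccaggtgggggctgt

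The core ran from position -162 to -155. A partial cAMP response element lay just ahead of it, from -172 to -168, and CCAAT on the opposite strand followed at -135. The windows of the 2 Scap starts overlapped and held 1 E-box in common. A window was read for 5 of the 6 genes, 8 windows in all. Stard4, for which none was read, is named only.

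**Figure D3:**
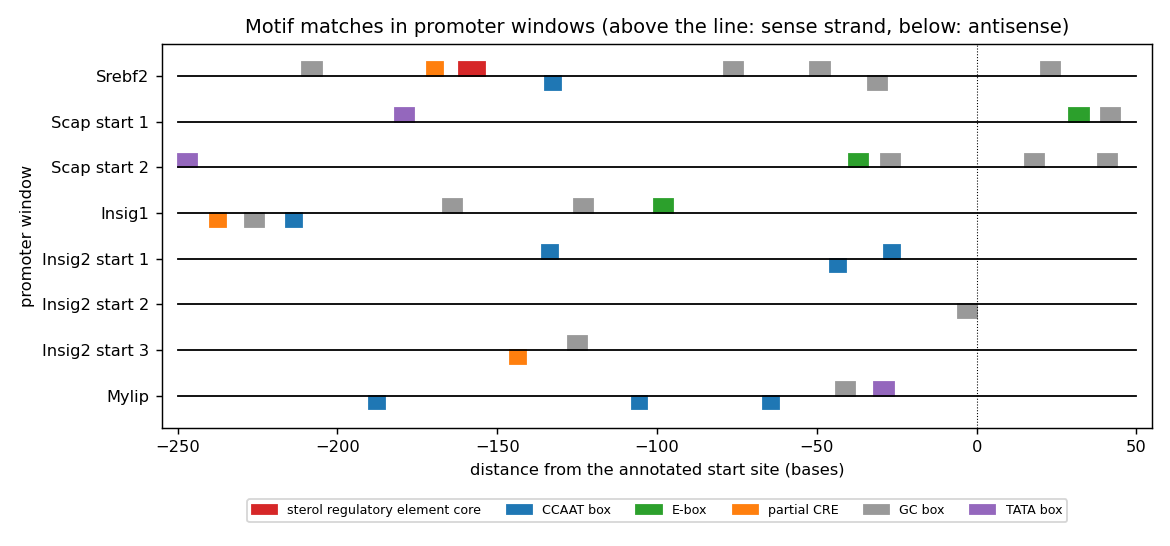
Matches of motifs in the 8 promoter windows (rows), by distance from the annotated start in bases (x axis). Boxes above a line are on the gene's strand and boxes below it on the opposite strand, with GC box (GGGCGG, in 35.7% of all windows) and TATA box added. The sterol regulatory element core is in the Srebf2 window only, and CCAAT stands 3 times in the Mylip window and in the first Insig2 window.

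Levels in the 8 livers did not overlap between states for 6 of the 9 kept probes. There were 4 with all fasted livers higher (Scap, both Insig2 probes and Mylip), where 5.82% of all kept probes had that, and 2 with all fasted livers lower (both Stard4 probes), where 7.78% had.

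The other genes of sterol handling were looked up in 5 lists of 104 genes, of which 96 had a kept probe, each by its brightest. Among the 96, 3 genes were called higher (3.12%) and 12 lower (12.5%), with a median log2 ratio of -0.02. Over all 13035 kept named genes 1.92% were higher and 2.32% lower, with a median of 0.0033. Like the 6 genes themselves, the lists were drawn up with earlier results of these data known.

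The enzymes that build cholesterol fell in part. None of 22 was called higher and 6 were called lower, with a list median of -0.18. Mvd, which decarboxylates mevalonate pyrophosphate, had log2 ratios of -0.96, -2.23, -2.24 and -2.18, with a mean of -1.90 ± 0.63 (SD, n = 4, limma adjusted p = 0.0127). Sqle, squalene epoxidase, had a mean of -1.82 ± 0.45 (limma adjusted p = 0.00609). Fdps, farnesyl diphosphate synthase, followed at -1.05 ± 0.47 (adjusted p = 0.0271). Idi1, the isopentenyl diphosphate isomerase, had a mean of -0.89 ± 0.68 (adjusted p = 0.0948), with a ratio of 0.03 on replicate 4. It was not called without replicate 1, 2 or 3, or with the filter on dim probes lifted. Fdps lost its call without replicate 3.

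Proteins that process the SREBPs or turn over the INSIGs also had calls in 1 direction. Of 23 kept genes, 5 were lower and none higher, with a list median of -0.06. Syvn1, the ubiquitin ligase HRD1 of the endoplasmic reticulum, had log2 ratios of -1.94, -2.42, -2.57 and -2.38 and a mean of -2.33 ± 0.27 (SD, n = 4, limma adjusted p = 0.00174). Its dimmer probe A_55_P2426799 gave 0.11 ± 0.083 (adjusted p = 0.474), so that the 2 Syvn1 probes disagree. Sec23b, a coat protein of the vesicles that leave the endoplasmic reticulum, had a mean of -1.07 ± 0.27 (adjusted p = 0.01). Erlin1, which takes part in the breakdown of proteins in that membrane, had -1.03 ± 0.16 (adjusted p = 0.00478). Rnf145, a ubiquitin ligase that acts on SCAP, had -0.66 ± 0.15 (adjusted p = 0.0144). The site-1 protease gene Mbtps1, which makes the first cut in SREBP precursors, had a mean of 0.10 (adjusted p = 0.544).

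Among 17 kept genes of the oxysterol receptors and their targets, 1 was higher and 1 lower, with a list median of 0.08. Srebf1, which encodes the SREBP of fatty acid synthesis, had log2 ratios of -0.32, -1.15, -1.32 and -0.91 and a mean of -0.93 ± 0.44 (SD, n = 4, limma adjusted p = 0.0315). Its call was lost without replicate 2 or 3. Lpcat3, which remodels phospholipids, had a mean of 0.75 ± 0.47 (adjusted p = 0.0629) and was not called without replicate 2, 3 or 4 or with median centring. The receptor genes themselves, Nr1h3 and Nr1h2, had means of -0.16 (adjusted p = 0.255) and 0.13 (adjusted p = 0.656).

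Lipoprotein uptake and the endosomal path of cholesterol held 22 kept genes, of which 1 was higher and none lower, with a list median of 0.05. Osbpl1a, an oxysterol-binding protein of late endosomes, had log2 ratios of 0.65, 0.55, 0.61 and 0.93 and a mean of 0.69 ± 0.17 (SD, n = 4, limma adjusted p = 0.0144). Its other probe, A_55_P2029503, gave 0.18 ± 0.16 (adjusted p = 0.307). With median centring the Osbpl1a mean was 0.55, under the fold limit, and the call was lost.

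Among 13 kept genes of the lipid transfer family to which Stard4 belongs, 1 was higher and none lower, with a list median of 0.03. That gene was Stard5, a close relative of Stard4, with log2 ratios of 0.36, 0.38, 1.09 and 1.14 and a mean of 0.74 ± 0.43 (SD, n = 4, limma adjusted p = 0.0548). The fasted liver was in green on both arrays with the larger ratio. Its other probe, A_52_P481182, had a mean of 0.41 ± 0.17 (adjusted p = 0.0551), under the fold limit, and the Stard5 call was lost without replicate 3 or 4.

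**Figure D4:**
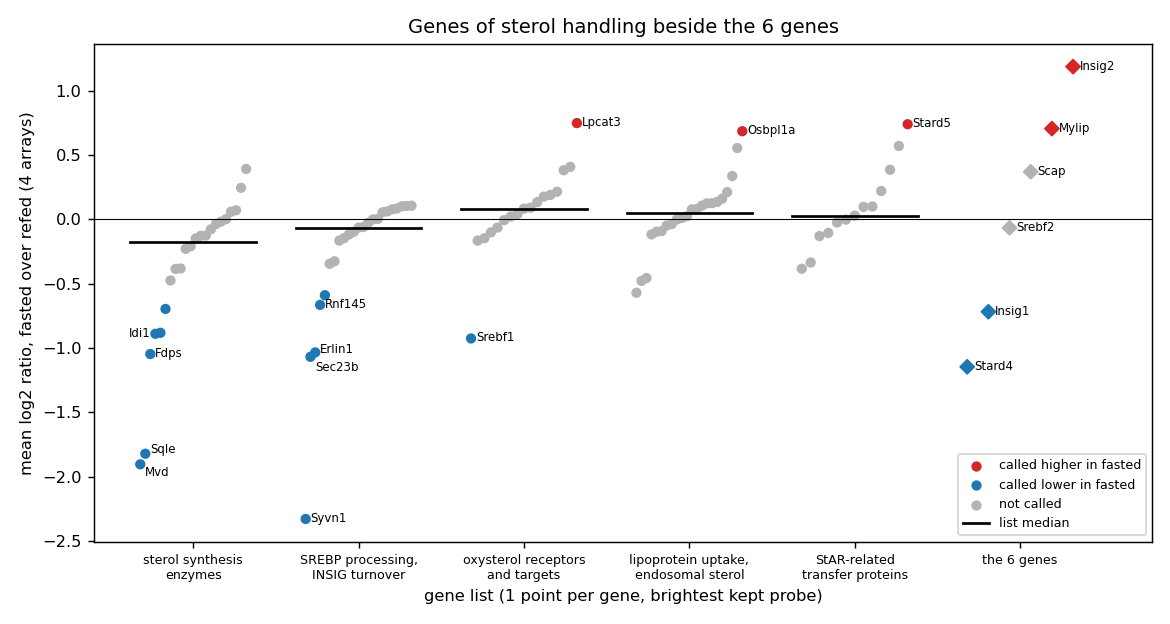
Mean log2 ratio of fasted over re-fed liver over 4 arrays (y axis) for each kept gene of 5 lists and for the 6 genes (x axis), 1 point per gene by its brightest kept probe. Red points were called higher, blue points lower, grey points were not called, and black lines are list medians. Calls in the first 2 lists are all lower, and the 6 genes hold 2 called in each direction.

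For each called gene of the 6, the 3 kept genes nearest to it were found by the root mean square difference of their 4 log2 ratios, over 13034 other genes. For Insig2 these were Brap (0.143), Rnd1 (0.153) and Zkscan17 (0.188). For Insig1 they were Poli (0.156), Actb (0.167) and Irgm1 (0.181). Mylip had the closest, with Wbp1l (0.0644), Rbms1 (0.0694) and Pcmtd2 (0.0964). Stard4 had the most distant, Fdps (0.241), Nudt7 (0.269) and Foxa1 (0.312), of which Fdps is a gene of the sterol synthesis list. With 4 arrays the measure mostly finds genes of the same size of change, and it is given as a description.

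The values of the 6 genes under other ways of processing kept their direction for all 7 kept probes outside Srebf2. The mean log2 ratio of the brighter Insig2 probe lay between 1.04 and 1.27 in all of them and was called in each.

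**Figure D5:**
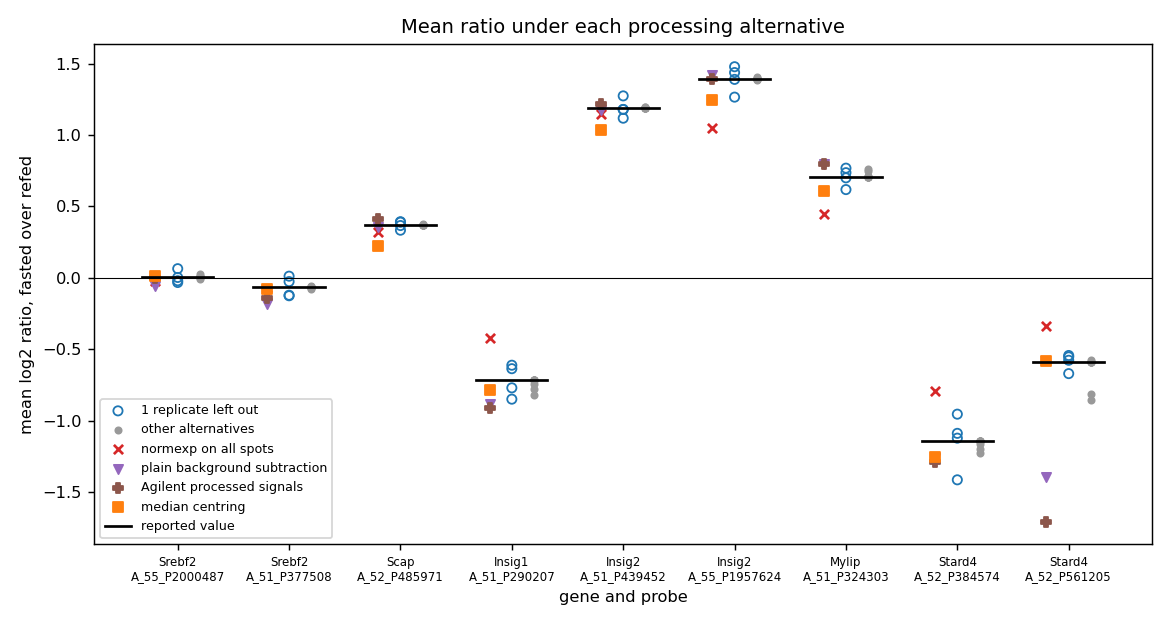
Mean log2 ratio of fasted over re-fed liver (y axis) for the 9 kept probes (x axis) under each alternative, with the reported value as a black line. Open circles leave out 1 replicate, and crosses fit the background on all spots, which gave the values nearest to 0 for Insig1 (-0.42), the brighter Mylip probe (0.45) and both Stard4 probes (-0.79 and -0.34).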

How the data were processed

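Total RNA of 8 individual livers, 4 fasted and 4 re-fed, was amplified from 200 ng, labelled with Cy3 or Cy5 and hybridized to 4 two-colour whole mouse genome arrays in a dye swap, per the labels. The authors quantified the scans with Agilent Feature Extraction, and the deposited scanner files hold each spot's raw intensity (median and mean over pixels), the local background, a processed intensity and, as other columns, quality flags. The authors also deposited log2 ratios, which their methods normalized by print tip loess in limma, with no background step given in the sources used here. Those ratios matched the scanner files by row number (correlation 0.975 to 0.992) and ran as fasted over re-fed.

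Median signals were read in R 4.3.3 and tested with limma 3.58.1. Spots with a local background over 3 times the array median (55 in all) were left out, the background was corrected by normexp with an offset of 50, and loess (span 0.3) was fitted within arrays on gene spots. Control spots and flagged spots (237 to 372 per array) were left out, and no member spot was flagged or saturated. Spots of 1 probe were averaged, and ratios were turned by the dye labels. Differences were tested two-sided with lmFit and eBayes and Benjamini-Hochberg adjustment (19735 kept probes), at the 10% FDR and 1.5-fold limits of the study, whose methods used SAM. SAM was rebuilt as an alternative. The script was tested on simulated data.

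Gene names were updated through RefSeq tables, by accession for 26055 probes and by symbol or synonym for 4125, while 9249 kept the name in the files. Probe positions are those of the file headers (mm9), and promoter windows are from RefSeq (GRCm38.p6). Where probes lie within transcripts was not analysed here. The genes, lists, motifs and the background limit were chosen with earlier results of these data known. Named beside the 6 genes were up to 4 called genes of each list, largest mean first, and the 3 genes nearest to each called member. Mbtps1, Nr1h2, Nr1h3 and Tat were named after their values were seen. Of the cell markers, 6 immune genes were kept, with mean log2 ratios of 0.26, -0.26, 0.40 and -0.12 on replicates 1 to 4, and of 5 adipose genes 1 was kept, Cidec, at -0.24, 2.26, 0.09 and -0.31.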

Additional observations from a re-analysis of the deposited data

Results flagged for a closer look

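Of 37 groups of 4 values checked for 1 sample far from the rest, 2 stood out, and chance would flag about 5% of such groups. The pancreatic acinar genes had a mean log2 ratio of -3.93 on replicate 3 against -0.06 to 0.04 on the others, and the gap took up 0.974 of the range. On the dim Mylip probe A_52_P248343, below the filter, the fasted liver of replicate 2 had a log2 level of 6.93 against 6.37 to 6.42 in the other fasted livers, with 0.908 of the range. The re-fed liver of replicate 2 was also the highest of its group on that probe, at 6.68.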

How the results depend on the processing

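Fitting normexp on all spots, where the estimated background SD on replicates 3 and 4 was 1075 to 4298 against 0.831 to 1.88 otherwise, removed most calls. The mean log2 ratios were then -0.42 for Insig1, 1.05 for Insig2 probe A_55_P1957624, 0.45 for Mylip and -0.79 and -0.34 for Stard4, none of them called. Member probes called went from 3 higher and 3 lower to 1 and 0, the genes of the 5 lists from 3 higher and 12 lower to 0 and 1, and 3 member probes passed the test of a dye effect.

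The dim Stard4 probe A_52_P561205 fell below 1.5-fold with mean signals (-0.58) and with median centring (-0.58). Leaving out 1 replicate gave -0.67 to -0.54 for it, -1.41 to -0.95 for the brighter Stard4 probe and -0.85 to -0.61 for Insig1. Member probes called lower then ran from 0 to 3, with 0 without replicate 2 or 3. Genes of the lists called higher ran from 1 to 5 with 1 replicate left out and were 5 with plain subtraction, 6 with Agilent's processed signals, 1 with median centring and 9 with no fold limit.

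Srebf2 changed sign. Probe A_51_P377508 had 0.011 without replicate 1 (-0.13 to 0.011 with 1 left out). Probe A_55_P2000487 had -0.025 with normexp on all spots, -0.056 with plain subtraction, -0.0095 with mean signals and -0.033 to 0.064 with 1 left out, including -0.021 without replicate 2 and -0.033 without replicate 3. Median centring left array medians of -0.15 on replicate 1 and -0.09 on replicate 4 relative to loess. Signal over background limits the Srebf2 probes, the dim Stard4 probe and the dim Mylip probe. SAM, rebuilt on the same ratios, called the same 3 member probes higher and the same 3 lower. Over all kept probes, 335 higher and 409 lower became 5 and 15 with normexp on all spots, 203 and 251 without replicate 3, 552 and 712 with plain subtraction and 686 and 904 with Agilent's processed signals.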
